A study of Rattus norvegicus with 6 samples.

Results

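Metallothioneins are small proteins, rich in cysteine, that bind zinc and copper. In the array annotation used here 4 of their genes, Mt1, Mt1m, Mt2A and Mt3, were taken as members out of 22093 genes that a probe set names alone. Each probe set pools the array's probes for a single transcript. The members were chosen by gene symbol with their difference between the groups already known, so their values are given as a description and without a test. Mt1, named by 2 probe sets, was represented by the brighter on average over the 6 arrays. The sevoflurane group held 3 male Sprague-Dawley rats, 18 months old, which were anaesthetised for 4 h with sevoflurane at 2.5%, carried in 100% oxygen. The control group held 3 rats of the same strain, sex and age that received the oxygen alone for as long. Both groups thus breathed pure oxygen and lived on for 3 h in home cages before the hippocampus was removed, and 1 one-colour Clariom D Pico array was made from each rat. The values are normalized expression on the log2 scale, on which a difference of 1 is a doubling.

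Metallothioneins store zinc and copper in the cell, hold the level of free zinc low and take up oxidants through their cysteines. Mt1 and Mt2A are induced in most tissues by zinc through the transcription factor MTF-1, which binds short metal response elements before these genes, and also by glucocorticoids and by interleukin-6. In the brain they are made mainly by astrocytes and by cells of the choroid plexus and meninges. Mt3, first described as a growth inhibitory factor, is enriched in the brain and reacts little to these inducers. Mt4 is known from stratified epithelia.

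The median of each array lay between 5.517 and 5.764, and the background, taken as the median of its control probe sets, between 3.46 and 3.96. Sevoflurane replicate 1 stood apart, with a mean correlation of 0.986 with the other arrays across probe sets (0.991 to 0.993 for the other arrays) and the smallest spread, a standard deviation of 1.85. Limma called 0 of 68842 probe sets at an adjusted p under 0.05 (0%, smallest adjusted p = 0.184). At an unadjusted p under 0.05 it called 1108. After adjustment 0 were called when limma modelled the spread by level and robustly, and 23 when it weighted the arrays. None of 11 neuron markers and none of 8 measured markers of the hippocampal fields, Prox1 and Wfs1 among them, lay below the background median on all 6 arrays. That bar was low, since 61810 of the 68842 probe sets had a mean level above the median of the 6 array backgrounds.

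In all, 7 probe sets named a metallothionein, and their identifiers and RefSeq set limits on what each can be said to measure. The identifier of a probe set of this array holds a chromosome number, which was the RefSeq chromosome of the named gene (assembly GRCr8) for 21501 of 21788 probe sets, or 98.7%. Mt1, Mt2A, Mt3 and Mt4 lie side by side on chromosome 19 in RefSeq, between Nup93 and Bbs2, and each has 1 probe set with a chromosome 19 identifier, numbered in the same order. Mt1 has another, with a chromosome 17 identifier. That one stood for the gene because its mean was the highest. In identifier order it falls between Suv39h2 and Meig1, and between these genes RefSeq has the pseudogene Mt1-ps3. Mt1m, on chromosome 20, is itself annotated as a pseudogene in RefSeq. Mt1f, on chromosome X, was named by symbol alone. No probe sequences were used here, so how far these probe sets also capture transcripts of the near-identical copies was not tested, and the values of Mt1, Mt1m and Mt1f are uncertain as to their source.

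Mt2A, the partner of Mt1 in metal storage, separated the groups with all sevoflurane arrays above the controls, and so did Mt1 and Mt1m. Mt2A was at 11.44, 11.66 and 11.69 on the sevoflurane arrays and at 10.76, 10.81 and 10.80 on the control arrays. The lowest sevoflurane value lay 0.63 above the highest control value. The group means were 11.60 ± 0.13 after sevoflurane and 10.79 ± 0.03 in controls (SD, n = 3 each), a difference of 0.80 with a standard error of 0.11, or 1.75-fold. In bulk tissue, more cells of a type and more RNA per cell cannot be told apart.

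Mt1m was at 11.92, 12.19 and 12.28 on the sevoflurane arrays and at 11.11, 11.26 and 11.30 on the control arrays. Again the groups were separated, by 0.62. The means were 12.13 ± 0.19 after sevoflurane and 11.22 ± 0.10 in controls (SD, n = 3 each), which gives a difference of 0.91 with a standard error of 0.13.

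The probe sets of Mt1 gave unequal differences. The chromosome 17 probe set was at 8.41, 9.07 and 9.28 on the sevoflurane arrays and at 7.73, 7.86 and 7.55 on the control arrays, a difference of 1.21 with a standard error of 0.21. Its means were 8.92 ± 0.45 after sevoflurane and 7.71 ± 0.15 in controls (SD, n = 3 each). The chromosome 19 probe set, which carries the identifier of the gene's own locus, was at 5.84, 5.82 and 5.97 after sevoflurane and at 5.35, 5.56 and 5.37 in controls. Its difference was 0.45 with a standard error of 0.11, or 1.37-fold against 2.31-fold for the other. Both probe sets separated the groups, by 0.26 on chromosome 19 and by 0.55 on chromosome 17. The size given for Mt1 therefore depends on the probe set, and the mean of both gives 0.83.

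Mt3, the form enriched in brain, was nearly level. It was at 10.41, 10.43 and 10.37 on the sevoflurane arrays and at 10.18, 10.22 and 10.34 on the control arrays. The groups did not overlap, but the gap between them was 0.03. The means were 10.40 ± 0.03 after sevoflurane and 10.25 ± 0.08 in controls (SD, n = 3 each), a difference of 0.16 with a standard error of 0.10, or 1.11-fold. All sevoflurane arrays lay above all control arrays for 4 of the 4 members and for 4.93% of the 22093 genes, a background given only for scale, because the members were chosen with this contrast known. The median difference of the 4 members was 0.86, or 0.63 with Mt1 taken from its chromosome 19 probe set, and that of all genes was 0.02. Among all genes the difference of Mt1 held rank 7 from the top with the chromosome 17 probe set and rank 106 with the chromosome 19 probe set. That of Mt1m held rank 19, that of Mt2A rank 24 and that of Mt3 rank 1866.

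The remaining probe sets were not members. Mt1f was at 6.38, 6.70 and 6.87 on the sevoflurane arrays and at 6.01, 5.95 and 5.86 on the control arrays, which did not overlap, and its difference was 0.71 with a standard error of 0.14. Mt4 was at 6.08, 5.92 and 5.83 on the sevoflurane arrays and at 5.72, 6.03 and 5.92 on the control arrays. These overlapped, and the difference was 0.05 with a standard error of 0.13. All 7 probe sets lay above the background median on all 6 arrays, a low bar that 61810 of 68842 probe sets passed by their mean. Thus 6 of the 7 separated the groups, where 4.93% of all genes had every sevoflurane array above every control array. How far these probe sets capture the same transcripts was not tested, so the 6 may not be separate observations. The smallest differences were those of Mt3 and Mt4, the last genes of the row on chromosome 19.

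**Figure D1:**
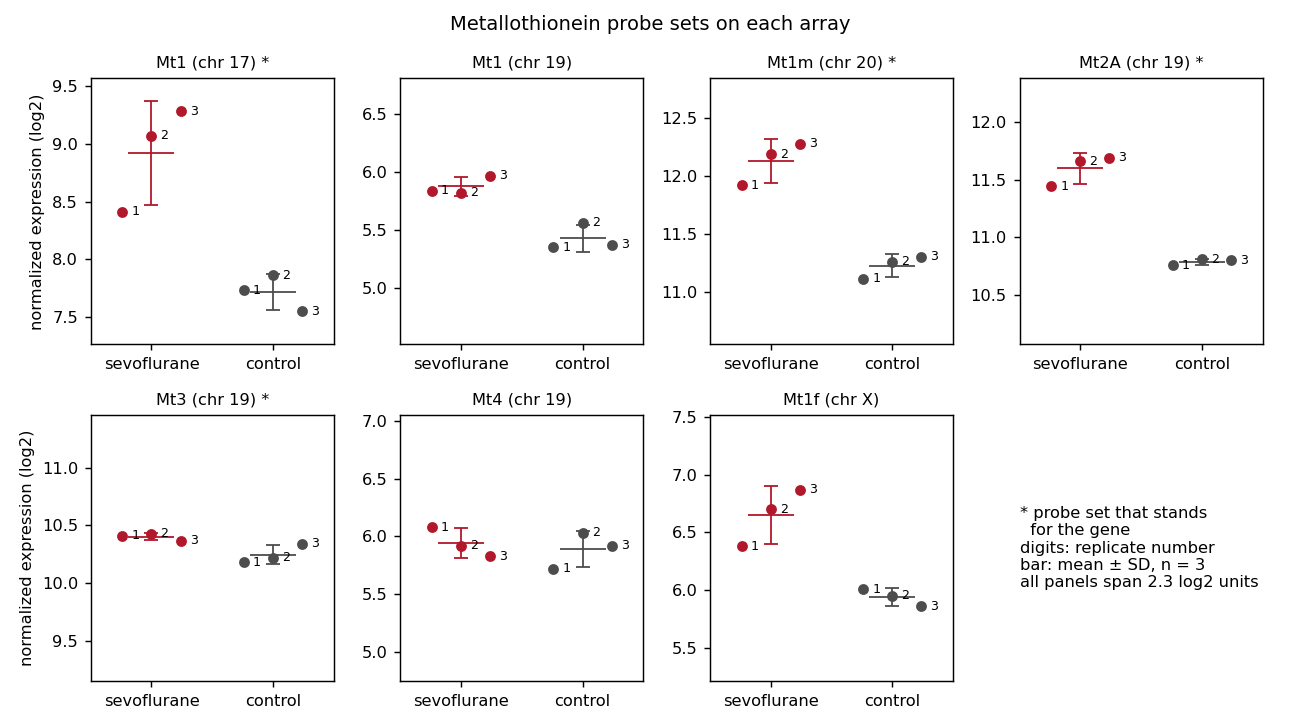
Normalized expression (log2, vertical axis) of the 7 probe sets naming a metallothionein on the 3 sevoflurane arrays (left) and the 3 control arrays (right) of each panel, with mean ± SD. Mt1, Mt1m, Mt2A and Mt1f sit apart by group, Mt3 by a gap of 0.03 only, and the Mt4 arrays overlap.

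The stretches before Mt1, Mt2A and Mt3 are shown because the genes are neighbours and yet differed unequally, by 0.45 and 0.80 for Mt1 and Mt2A on chromosome 19 and by 0.16 for Mt3. Each is the 250 bases before the RefSeq gene start (assembly GRCr8, minus strand, read 5′ to 3′), at chr19:10832976-10833225 for Mt1, chr19:10838709-10838958 for Mt2A and chr19:10856081-10856330 for Mt3. Capitals mark the core of the metal response element, TGCACNC or TGCGCNC on either strand.
Mt1: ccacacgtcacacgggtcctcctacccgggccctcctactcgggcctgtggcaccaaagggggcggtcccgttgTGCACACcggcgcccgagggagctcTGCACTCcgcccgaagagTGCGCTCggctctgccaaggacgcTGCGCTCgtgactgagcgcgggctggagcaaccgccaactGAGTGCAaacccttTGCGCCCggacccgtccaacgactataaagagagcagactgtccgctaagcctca
Mt2A: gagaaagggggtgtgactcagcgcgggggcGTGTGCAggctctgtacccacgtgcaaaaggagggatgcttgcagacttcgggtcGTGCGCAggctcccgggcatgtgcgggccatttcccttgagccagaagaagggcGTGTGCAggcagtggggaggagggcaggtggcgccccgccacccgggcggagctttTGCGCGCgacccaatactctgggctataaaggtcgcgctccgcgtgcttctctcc
Mt3: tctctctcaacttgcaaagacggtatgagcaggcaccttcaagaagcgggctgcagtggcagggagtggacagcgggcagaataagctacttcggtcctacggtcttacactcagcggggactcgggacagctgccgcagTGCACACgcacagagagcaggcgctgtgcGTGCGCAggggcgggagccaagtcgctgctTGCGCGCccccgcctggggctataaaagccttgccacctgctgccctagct

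The stretch before Mt1 held 6 such cores, that before Mt2A held 4, that before Mt3 held 3 and that before Mt4 held 1, while Mt1f had none. At least 1 core was found in 20.6% of 33469 RefSeq stretches of the same length, at least 3 in 1.17%, at least 4 in 0.266% and at least 6 in 0.0269%, that is 9 stretches. The core nearest to the start had the form TGCGCNC in the first 3 genes, from -55 to -49 in Mt1 and Mt2A and from -51 to -45 in Mt3. Other cores lay from -176 to -63 in Mt1, from -220 to -105 in Mt2A and from -110 to -75 in Mt3. In Mt1 all but 1 of the 6 ran in the direction of the gene, and in Mt2A all but 1 of the 4 ran against it. No core overlapped another motif searched.

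Motifs of other known inducers were fewer. A single arm of the glucocorticoid response element, AGAACA, was in none of the stretches before these 5 genes, where 17.5% of all stretches held it. Its full palindrome, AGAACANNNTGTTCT, was likewise in none of the 5 and in 4 of all stretches (0.012%). The core of the hypoxia response element, ACGTG, occurred in Mt1, and in Mt2A at overlapping places on both strands, and in 16.6% of all stretches. The core of the antioxidant response element, TGACNNNGC, occurred once each in Mt1, Mt2A and Mt1f and in 10.1% of all stretches. All motifs were searched on both strands, and a match or its absence concerns only these letters in this window.

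**Figure D2:**
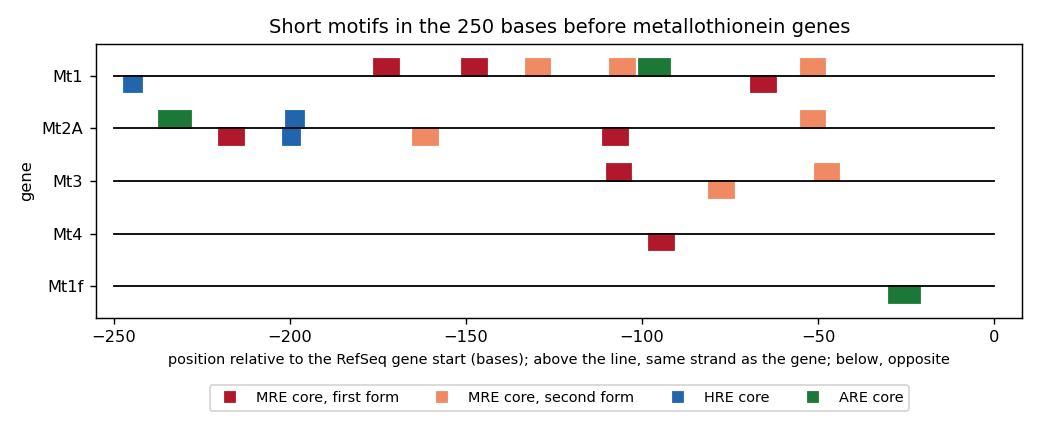
Motif matches in the 250 bases before 5 metallothionein genes (horizontal axis, position from the RefSeq gene start; boxes above a line run with the gene, boxes below against it). Mt1 carries 6 cores of the metal response element, Mt2A 4, Mt3 3, Mt4 1 and Mt1f none.

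The sevoflurane arrays stood in the same order for 4 of the metallothionein probe sets. Genes without a difference between the groups also had this order. Rab9b was at 7.19, 7.86 and 7.92 on sevoflurane replicates 1, 2 and 3, and Pcbp2 at 8.54, 8.78 and 8.79. Both were picked because their values within the groups ran close to those of Mt1 and Mt2A, so their order followed from that choice. The share of all genes with this order was not counted, so it is not shown to be particular to metallothioneins. Replicate 1 was lowest and replicate 3 highest for Mt1 on chromosome 17, Mt1m, Mt2A and Mt1f. Above the control mean, Mt1m was at 0.70, 0.97 and 1.05 on sevoflurane replicates 1, 2 and 3, and Mt1 on chromosome 17 at 0.70, 1.36 and 1.57. Mt1 on chromosome 19 did not follow this order, with 0.41, 0.39 and 0.55, nor did Mt3, with 0.16, 0.18 and 0.13. Replicate 1, lowest for these 4 probe sets, is the array that stood apart. Without it the differences were 1.46 for Mt1, 1.01 for Mt1m, 0.88 for Mt2A and 0.15 for Mt3, so none of the 4 rested on this array.

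The genes next to the metallothioneins on chromosome 19 were compared because they share the region and not the function. These were the 4 nearest measured protein-coding genes on each side, and they were chosen by position after the members' values had been seen. Herpud1, a protein of endoplasmic reticulum stress, was at 0.16 (95% interval -0.11 to 0.42), LOC102553339 at 0.17 (-0.17 to 0.50), the salt transporter Slc12a3 at 0.05 (-0.35 to 0.45) and the nucleoporin Nup93 at -0.03 (-0.28 to 0.22). On the other side Bbs2, a protein of the cilium, was at 0.06 (-0.24 to 0.37), Ogfod1 at -0.03 (-0.37 to 0.32), the polyadenylation factor Nudt21 at 0.01 (-0.28 to 0.30) and the G protein subunit Gnao1 at -0.01 (-0.24 to 0.22). The sevoflurane and control arrays overlapped for each of the 8. Of all genes only 4.93% had every sevoflurane array above every control array, so overlap is the usual case. Each of the 8 had an adjusted p of 1 from limma. This does not set them apart, since 0 of 68842 probe sets were called after adjustment.

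Genes listed under zinc handling showed no difference of the size seen in Mt2A. Of 25 measured genes of zinc handling none was called in either direction at an unadjusted p under 0.05 from limma, where 1.10% of all genes were called higher and 0.222% lower. Their median difference was 0.03. At these shares no call is the usual outcome for a list this short. Mtf1, the factor that senses zinc and switches on Mt1 and Mt2A, was at 7.90, 7.94 and 7.88 on the sevoflurane arrays and at 7.78, 7.87 and 7.80 on the control arrays. These did not overlap, but the difference of 0.09 had an interval of -0.14 to 0.32. Slc30a1, the zinc exporter of the cell membrane and another target of MTF-1, was at 7.19, 7.07 and 7.18 after sevoflurane and at 7.08, 7.13 and 7.06 in controls, which overlapped (difference 0.06, interval -0.17 to 0.29).

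The other genes of the ZnT family lay between -0.04 and 0.09. Slc30a3, which loads zinc into synaptic vesicles and is abundant in mossy fibres of the hippocampus, was at -0.04 (interval -0.27 to 0.19), and Slc30a10 was at -0.01 (-0.32 to 0.30). The 13 measured importers of the ZIP family lay between -0.12 and 0.20. Slc39a14, the importer that inflammation raises in liver, was at 0.03 (-0.20 to 0.27) and Slc39a12, enriched in brain, at -0.05 (-0.43 to 0.33). The upper bounds for Mtf1, Slc30a1 and Slc30a3 lay below the 0.80 of Mt2A.

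**Figure D3:**
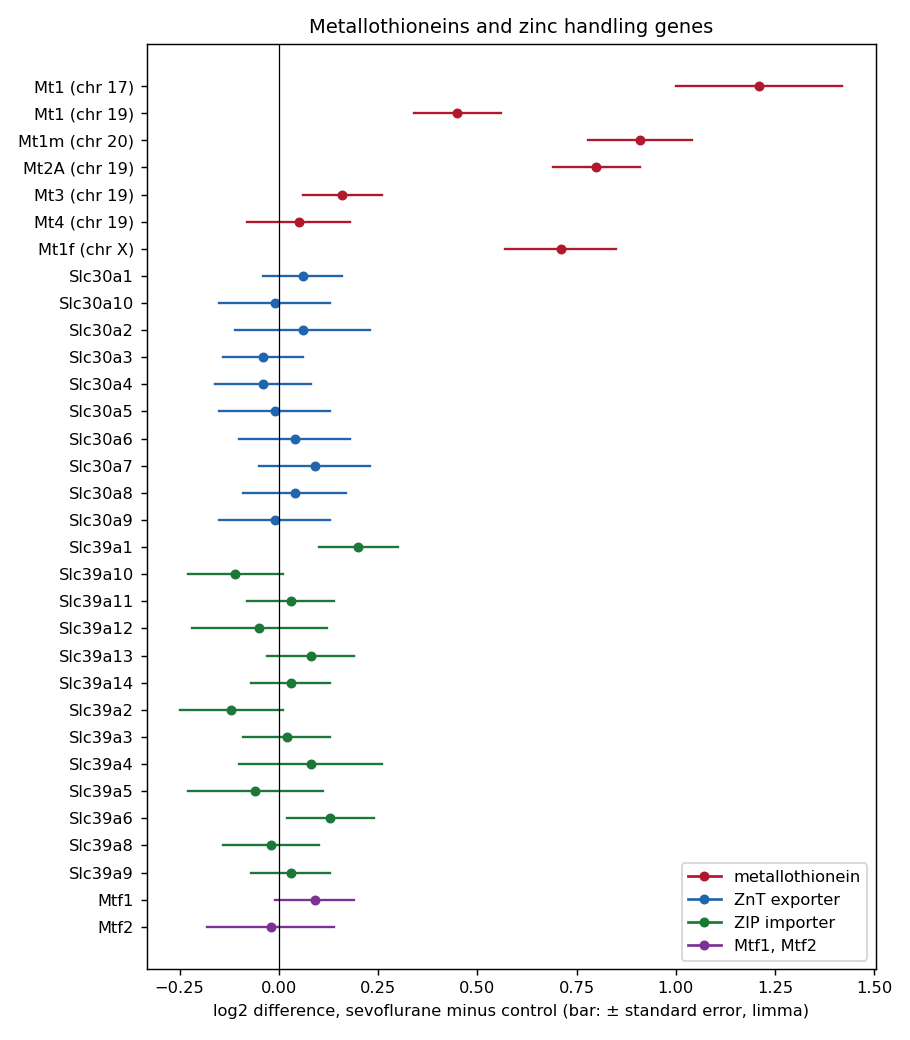
Log2 difference, sevoflurane minus control (horizontal axis, bar ± standard error from limma), of the 7 metallothionein probe sets and of 25 zinc handling genes. Mt1, Mt1m, Mt2A and Mt1f lie between 0.45 and 1.21, and the listed zinc handling genes between -0.12 and 0.20.

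Genes of copper and iron handling were likewise not called. None of 15 measured copper genes and none of 18 measured iron genes had an unadjusted p under 0.05 from limma, with medians of 0.05 and 0.04, where 1.10% of all genes were called higher and 0.222% lower. No call is thus the usual outcome for lists this short. The widest differences of these lists, chosen after their values were seen, were those of the copper oxidase ceruloplasmin, Cp, the transferrin receptor Tfrc and the ferroxidase hephaestin, Heph. Cp was at 5.16, 5.98 and 5.99 on the sevoflurane arrays and at 5.43, 5.10 and 5.27 on the control arrays, a difference of 0.45 (interval -0.06 to 0.96), as large as that of Mt1 on chromosome 19. Sevoflurane replicate 1 lay among the controls. Tfrc was at -0.36 (interval -0.79 to 0.07) and Heph at 0.30 (-0.08 to 0.68), both with overlapping groups. The copper importer Slc31a1 was at 7.35, 7.49 and 7.50 on the sevoflurane arrays and at 7.29, 7.25 and 7.23 on the control arrays, without overlap, and its difference of 0.19 had an interval of -0.05 to 0.42. The copper pump Atp7a was at 0.02 (interval -0.38 to 0.41). Hmox1, the heme oxygenase that is induced with the metallothioneins by many metals and oxidants, was at 0.11 (interval -0.14 to 0.36). Both lists changed with the processing. With sevoflurane replicate 1 left out, 3 of the 15 copper genes were called higher, where 1332 of all 68842 probe sets were called higher and 2806 lower. With sevoflurane replicate 2 left out, 1 iron gene was called higher and 1 lower, against 709 and 431 of all probe sets.

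Genes tied to the known inducers of metallothioneins fell into different patterns. Of 13 corticosteroid receptors and classical glucocorticoid targets, 8 were called higher and none lower at an unadjusted p under 0.05 from limma, against 1.10% and 0.222% of all genes, and none after adjustment (adjusted p = 1 each). This list was set up with the result for glucocorticoid-responsive genes known and is no independent support. Zbtb16, a transcription factor that glucocorticoids induce, was at 8.80, 8.86 and 9.05 on the sevoflurane arrays and at 8.16, 8.31 and 8.39 on the control arrays, a difference of 0.61. Tsc22d3, known as the glucocorticoid-induced leucine zipper, was at 7.69, 7.64 and 7.59 after sevoflurane and at 7.29, 7.19 and 7.33 in controls, a difference of 0.37.

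Neither gene overlapped between the groups. The kinase Sgk1 was at 7.92, 8.82 and 8.89 on the sevoflurane arrays and at 7.89, 7.45 and 7.83 on the control arrays, a difference of 0.82. Errfi1, an inhibitor of the epidermal growth factor receptor, was at 8.31, 8.92 and 9.26 after sevoflurane and at 8.31, 8.13 and 8.25 in controls, a difference of 0.60. For both genes sevoflurane replicate 1 lay at the level of the highest control array. Without sevoflurane replicate 3 the difference of Errfi1 was 0.39 and was not called (limma, unadjusted p = 0.0732). Fkbp5, a chaperone of the receptor, was higher by 0.52, Ddit4 by 0.42, Klf9 by 0.37 and Cebpd by 0.28. The mean of the list was 0.08, 0.41 and 0.51 above the control mean on sevoflurane replicates 1, 2 and 3, and up to 0.07 above it on the control arrays. Zbtb16, Tsc22d3, Fkbp5 and Ddit4 were called in all 14 alternatives, Sgk1 in 13, Klf9 in 9, Errfi1 in 8 and Cebpd in 7. The receptor gene Nr3c1 was at 8.33, 8.57 and 8.53 on the sevoflurane arrays and at 8.63, 8.65 and 8.68 on the control arrays, which did not overlap, with a difference of -0.17 (interval -0.43 to 0.08).

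Of 13 genes of the interleukin-6 and STAT3 axis, A2m was called higher at a difference of 0.46, with overlapping groups and in 7 of the 14 alternatives. Il6 itself lay below the background median on every array. Its signalling subunit Il6st was at 0.07 (interval -0.17 to 0.32) and the factor Stat3 at 0.19 (-0.05 to 0.43). Of 11 genes of the NRF2-dependent oxidative stress response none was called in this limma fit, and their median difference was 0.04. Of all genes 1.10% were called higher and 0.222% lower, so few calls or none are usual in lists this short. Nfe2l2, which encodes NRF2 itself, was at 7.01, 6.86 and 6.98 on the sevoflurane arrays and at 6.70, 6.71 and 6.78 on the control arrays, a difference of 0.22 (interval -0.02 to 0.46). Srxn1, a sulfiredoxin that NRF2 induces, was at 0.15 (interval -0.07 to 0.37). Both were named after their values were seen, and neither overlapped between the groups.

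The markers of cells known to make metallothioneins were followed on the same arrays. Of 12 astrocyte markers 1 was called higher at an unadjusted p under 0.05, the aldolase Aldoc at 0.30, and none lower. The mean level of the 12 astrocyte markers was between 9.26 and 9.35 on the sevoflurane arrays and between 9.16 and 9.26 on the control arrays. Relative to the control mean this list was at 0.06, 0.09 and 0.14 on sevoflurane replicates 1, 2 and 3. It was thus highest on replicate 3. Of 12 choroid plexus markers Cldn2 was called higher at 0.24, with levels of 4.03 to 4.17 after sevoflurane and 3.78 to 3.91 in controls, close to the background. Kcnj13 was below the background median on every array. The mean of this list was between 5.40 and 5.77 after sevoflurane and between 5.49 and 5.62 in controls, and it was lowest on sevoflurane replicate 3. Of 8 markers of meninges and fibroblasts Pdgfra was called higher at 0.27, while Dcn was at -0.16 and not called. Of 8 ependymal markers none was called.

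Markers of other cells also separated some arrays. As a background for the counts below, 1.10% of all genes were called higher and 0.222% lower. Of 10 markers of the thalamus and habenula, which adjoin the hippocampus, 4 were called higher and none lower. These were the kinase Prkcd at 1.23, the glutamate transporter Slc17a6 at 1.02 and the transcription factors Tcf7l2 at 0.85 and Shox2 at 0.78. The mean of the list was 0.49, 0.79 and 0.16 above the control mean on sevoflurane replicates 1, 2 and 3. On the same arrays Mt1m was at 0.70, 0.97 and 1.05 and Mt2A at 0.65, 0.87 and 0.89, nearly level on replicates 2 and 3. Microglia markers were 0.65 above the control mean on sevoflurane replicate 3 and at -0.03 and 0.02 on replicates 1 and 2, and none of the 9 was called. Of 6 blood genes Hba-a3 at -0.46 and Hbb-bs at -0.43 were called lower, and the list was at -0.24, -0.24 and -0.19. None of the calls in these cell lists held after adjustment (limma, adjusted p = 0.849 for Prkcd and 1 for each of the others). None of 9 endothelial markers was called. Of 9 oligodendrocyte markers Mag at 0.39 and Mal at 0.27 were called higher and Opalin at -0.61 lower. The part of these cells in the metallothionein values was not tested.

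**Figure D4:**
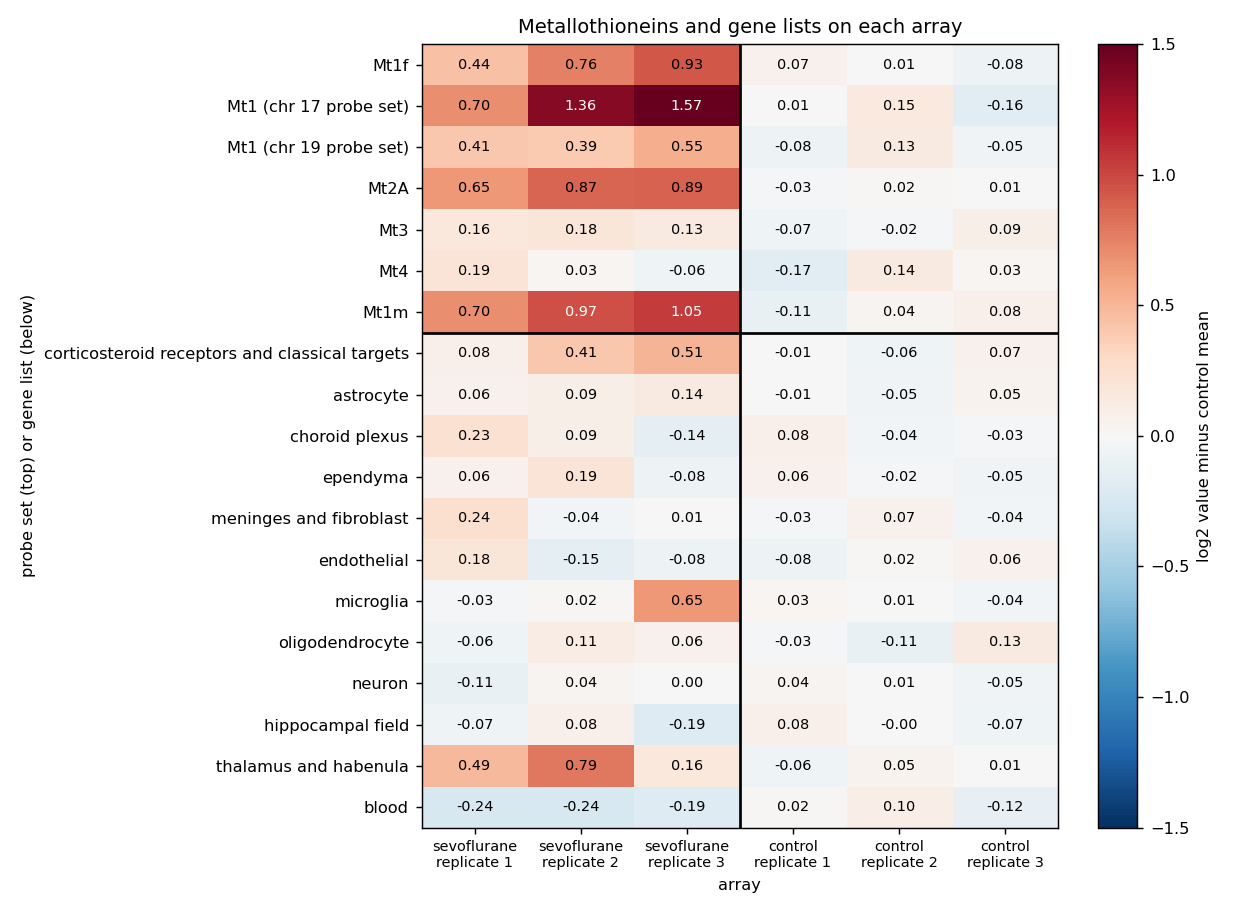
Log2 value minus the control mean (colour and printed number) of the 7 metallothionein probe sets and of the mean of each gene list on each array, sevoflurane arrays to the left of control arrays. Mt1m and Mt2A are at 0.65 or more on every sevoflurane array, while the astrocyte list reaches 0.14 at most and the thalamus and habenula list runs from 0.16 to 0.79.

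The genes most like each metallothionein were found by the root mean square distance of profiles over the 6 arrays, each centred on its own mean, among 11046 genes above the median level. These are descriptions in which the difference between the groups takes part. Nearest to Mt1m was Mt2A at a distance of 0.0753, followed by the lipid transporter Mfsd2a at 0.112 and the connexin gene Gjb6 at 0.121. Nearest to Mt2A were Gjb6 at 0.0669, Mt1m at 0.0753 and the triglyceride lipase Pnpla2 at 0.0801. For comparison, the profiles of Mt1m and Mt2A themselves spread around their means by 0.47 and 0.409. Mt1 had no near match, with Gpatch4, Mt1m and the kinase Pdk4 at 0.24, 0.245 and 0.246, against its own spread of 0.663.

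Mt3 spread by 0.0927 only, and the genes nearest to it were Uqcr11, a subunit of complex III, at 0.0123, the carbonic anhydrase Car14 at 0.0158 and Timm22 at 0.0178. With each group centred on its own mean, so that the difference between the groups took no part, other genes came first for all but Mt3. They were RGD1564801, Rab9b and Spag6l for Mt1 (distances of 0.0547 to 0.064), Scn1a, Erbb4 and Tmem258l1 for Mt1m (0.0267 to 0.0282) and Pcbp2, Klhl7 and Poldip3 for Mt2A (0.00811 to 0.0112). For Mt3 they were Car14, Uqcr11 and Arhgap23 (0.00826 to 0.0138). Except for Spag6l at -0.42 and RGD1564801 at -0.19, these genes differed between the groups by 0.15 or less in size.

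Processing changed the size of the metallothionein differences and not their sign. Mt1m stayed between 0.83 and 1.04, Mt2A between 0.76 and 0.96 and Mt3 between 0.12 and 0.23 in 11 alternatives each. Mt1 ran from 0.45 to 1.46 in 12. Among these, a block by replicate number could not change any difference, since each number holds an array of each group. The mean of all probe sets could not change Mt1m, Mt2A or Mt3, which have a single probe set each. Quantile normalization, which brings all arrays to one distribution, moved Mt2A to 0.96 and Mt3 to 0.23. The widest change was that of Mt1 with its chromosome 19 probe set.

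**Figure D5:**
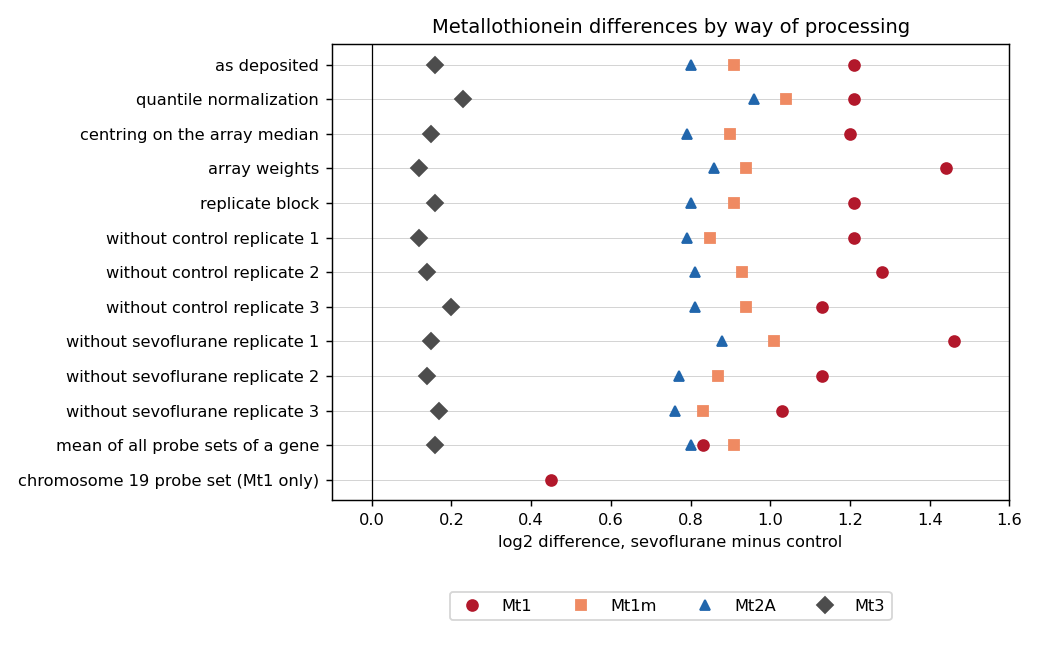
Log2 difference, sevoflurane minus control (horizontal axis), of Mt1, Mt1m, Mt2A and Mt3 for each way of processing (rows). All points lie above 0, Mt3 between 0.12 and 0.23 and Mt1 between 0.45 and 1.46.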

How the data were processed

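For each of the 6 arrays the authors deposited log2 values, already normalized, by probe set. Expression Console 1.4.1, RMA and MAS5 are named in the submitters' processing notes without a role for each. A shift common to most transcripts may be lost in such normalization. From 70580 probe sets 1738 controls were left out, with no filter on level. The 3 sevoflurane arrays were set against the 3 control arrays by limma 3.58.1 in R 4.3.3 with moderated, two-sided tests, and Benjamini-Hochberg adjustment ran over all 68842 probe sets. The number of arrays limits the precision. The members and gene lists were chosen with earlier results of these data known. Named were the members, other metallothionein probe sets, list genes with an unadjusted p under 0.05 or a stated role, neighbours on chromosome 19 and the 3 nearest profiles of each member. Sequences and gene loci came from RefSeq (GRCr8), and the genome build of the array is not given in the sources used here. The fit was tested on simulated data. The alternatives tried are listed with their effect in the closing section.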

Additional observations from a re-analysis of the deposited data

How the results depend on the processing

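The differences of the 4 metallothioneins kept their sign in every alternative run, including those that could not change them. Mt1 moved to 0.83 with the mean of its probe sets, to 0.45 with its chromosome 19 probe set (chosen after seeing the data) and to 1.44 with array weights. With quantile normalization Mt2A moved to 0.96 and Mt3 to 0.23, the shift of Mt3 being smaller than its standard error of 0.10. Leaving out 1 array gave 1.03 to 1.46 for Mt1 (1.46 without sevoflurane replicate 1), 0.83 to 1.01 for Mt1m, 0.76 to 0.88 for Mt2A and 0.12 to 0.20 for Mt3.

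Counts at an unadjusted p under 0.05 changed far more. Of all probe sets 595 were higher and 513 lower after sevoflurane. They became 1088 and 1008 with quantile normalization, 3063 and 6503 with array weights, 995 and 740 with the methods' one-way ANOVA, 795 and 512 with centring on the median, and 284 to 1332 and 250 to 2806 with 1 array left out. After adjustment the ANOVA called 0, with a smallest adjusted p of 0.616. Sevoflurane replicate 1 decides the upper ends, since 1332 and 2806 are the counts without it. The counts over all probe sets in each setting are the background for the lists that follow. Of 25 zinc handling genes 2 were called higher and 1 lower with array weights, where 3063 and 6503 of all 68842 probe sets were. With the ANOVA 1 was called higher, and with any 1 array left out 0. Copper handling genes called higher were 1 with quantile normalization, 3 with array weights, 2 with the ANOVA and 0 to 3 with 1 array left out. Iron handling genes called were 1 higher and 1 lower with array weights, and 0 to 1 in each direction with 1 array left out. Of the 37 genes tied to inducers 9 were called higher, 5 with centring on the median, 16 with array weights and 5 to 12 with 1 array left out. The cause of these changes was not tested.

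With the replicate number as a block 300 probe sets were higher and 190 lower, and 7 inducer genes were called higher. The metallothionein differences of 1.21, 0.91, 0.80 and 0.16 could not change, since each replicate number holds an array of each group. Same-numbered arrays deviated from their group means with correlations of -0.585, -0.288 and 0.0263 across probe sets. Differently numbered arrays gave values from -0.504 to 0.558. Deviations within a group of 3 sum to 0, so these correlations cannot show whether the numbers pair the rats. The sample labels do not say whether they do.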
